A study of Mus musculus with 6 samples.

Results

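The genes described here encode early transcription factors of 5 kinds: the orphan nuclear receptors Nr4a1, Nr4a2 and Nr4a3, the zinc finger factors Egr2 and Egr3, the Krüppel-like factors Klf2, Klf4 and Klf6, the growth regulator Myc, and Srf, the serum response factor. They were taken by name, 10 of the 40202 genes listed in the deposited table, and all 10 were among the 14079 genes with a mean of at least 10 normalised reads that were tested. The cells were BV2, an immortalised mouse microglial line on a C57BL/6 background, grown in medium with serum. The control group of 3 samples was untreated, and the FL-ApoE4 group of 3 samples was exposed to human full-length apolipoprotein E4 protein at 25 µg/ml for 5 h. Whether controls received the protein's vehicle and whether replicates were separate cultures is not stated in the labels; the p-values therefore cover the spread among these libraries alone, which may be technical. Total RNA was sequenced.

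Genes of this kind are transcribed within minutes of a signal, from factors such as CREB and SRF that already sit at their promoters, and their transcripts are short-lived. The NR4A receptors have no known classical ligand and act mainly through how much of them is made; in macrophages and microglia they are known for restraining inflammatory genes. EGR factors bind GC-rich sites and are held in check by the NAB corepressors, and KLF factors bind GC-rich and CACCC sites, with Klf2 known for keeping myeloid cells quiescent and Klf6 for promoting their inflammatory activation. MYC drives growth and ribosome production, and SRF controls both early genes and the actin cytoskeleton.

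Nr4a1 and Nr4a3 stood lowest with FL-ApoE4 relative to control, at 45.0% and 29.5% of the mean control level. Nr4a2, Egr2, Klf2 and Klf6 were at 76.7% to 80.8%, Myc was at 62.2%, and Klf4, Srf and Egr3 were at 90.1%, 94.9% and 102%. This order depended on control replicate 1. Against control replicates 2 and 3 alone, Nr4a1 and Nr4a3 were alike at 38.3% and 38.2%. The other genes then ranged from 76.9% (Klf4) to 94.1% (Srf), with Myc at 82.5%. With all 6 libraries 0 of the 10 genes reached an adjusted p under 0.05 by limma, the test fitted over all genes, as was the case for 0% of all tested genes. Without control replicate 1, Nr4a1 and Nr4a3 fell (limma adjusted p = 0.00456 and 0.0329), where 1.69% of all tested genes were called lower. Leaving out any other single library called 0 of the 10 genes.

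The libraries held 45700128 to 54965393 reads assigned to genes. Control replicate 1 stood apart. Its read counts gave chi-square values per gene of 64.1 and 71.9 when set against the other controls, which gave 4.85 when set against each other. For FL-ApoE4 replicate 1 the values were 21.4 and 19.9, and 4.39 for the remaining treated pair. Results for the 10 genes are therefore given with and without control replicate 1. In the fit without it the controls are the closely matched replicates 2 and 3, so its p-values may be too small. Of 14 markers of microglia and macrophages 13 had a mean of at least 10 normalised reads, and P2ry12, which defines resting microglia in tissue, was listed at 0 in all libraries. Their summed level was 209037 to 212056 in controls and 230984 to 237950 with FL-ApoE4, without overlap. Of the 7 neuronal markers 2 had a mean of at least 10, and their sum was 85.4 to 88.6 in controls and 62.1 to 80.3 with FL-ApoE4, also without overlap. The part of either in the results was not tested. The sums overlapped for fibroblast markers (0.942 to 8.69 and 1.96 to 7.81), astrocyte markers (90.1 to 138 and 95.9 to 101), oligodendrocyte markers (1151 to 1242 and 1212 to 1297), endothelial markers (3009 to 4772 and 4023 to 4546) and lymphocyte markers (47.1 to 60.8 and 57.5 to 81.2). Fewer cells expressing a gene and less of its RNA per cell cannot be told apart in these bulk samples.

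**Figure D1:**
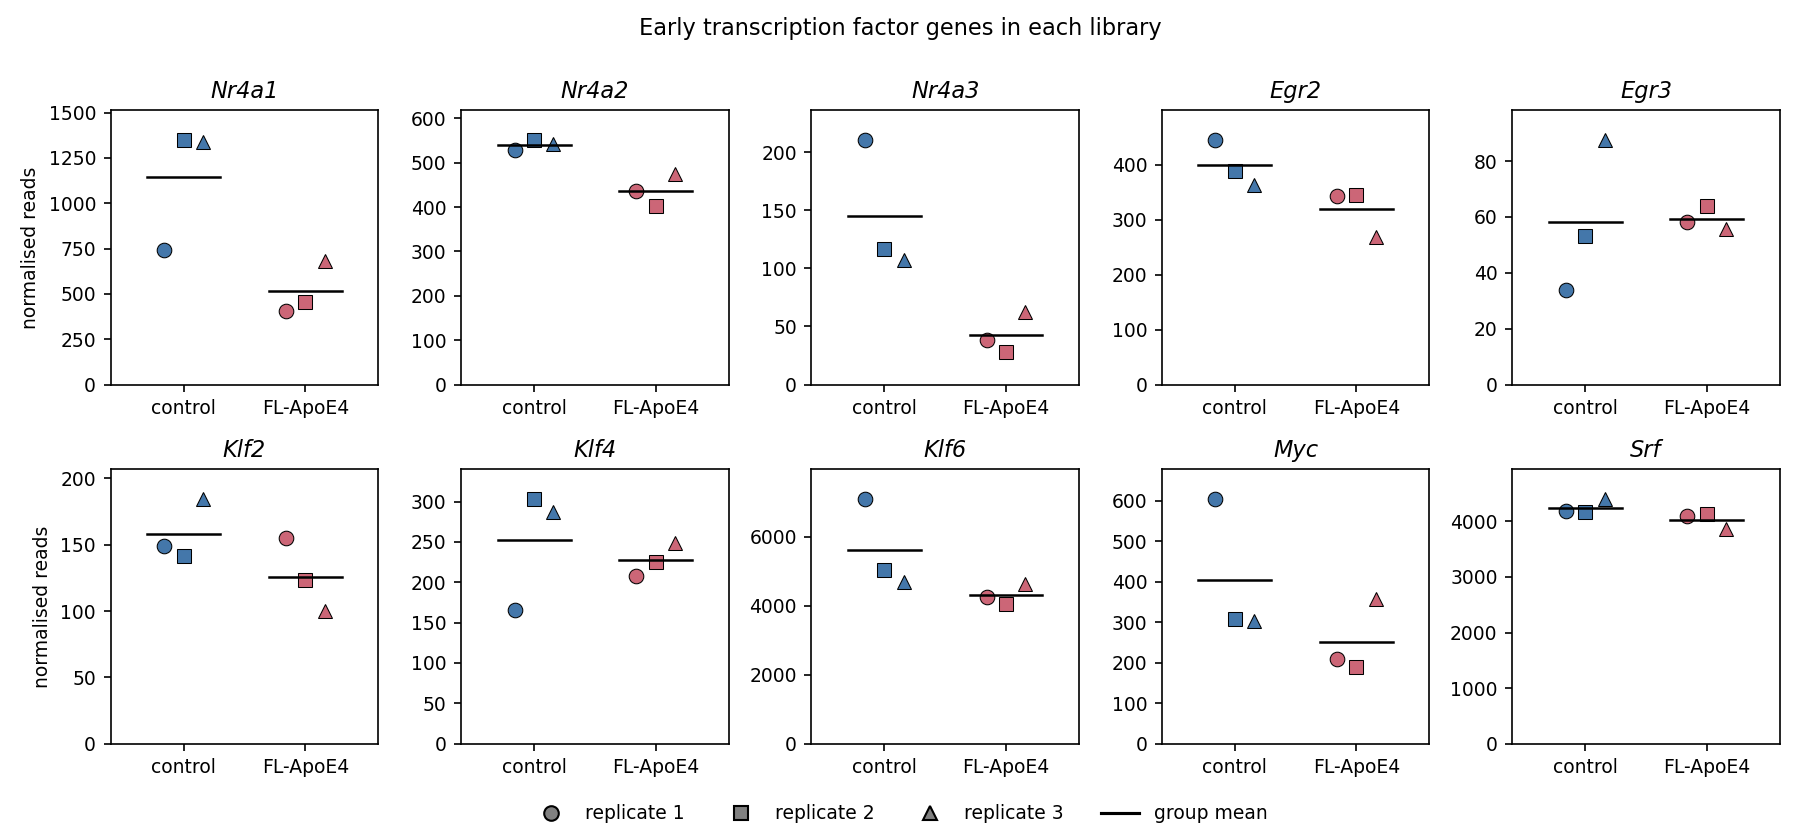
Normalised reads (vertical axes, linear and starting at 0, scaled for each gene) of the 10 early transcription factor genes in the 3 control and 3 FL-ApoE4 libraries; marker shapes are replicate numbers and lines are group means. Nr4a1, Nr4a2, Nr4a3, Egr2, Klf6 and Srf show no overlap between the groups, and control replicate 1 lies away from the other controls for Nr4a1, Nr4a3, Klf4, Klf6 and Myc.

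In 6 of the 10 genes (Nr4a1, Nr4a2, Nr4a3, Egr2, Klf6 and Srf) every FL-ApoE4 library was below every control library, which was so for 10.9% of all tested genes. For Egr3, Klf2, Klf4 and Myc the groups overlapped. The genes were picked with earlier results of these data known, so this count is a description. Unadjusted limma p-values were under 0.05 for 5 of the 10, all lower (Nr4a1, Nr4a2, Nr4a3, Egr2 and Klf6), against 6.33% of all tested genes that were lower at that level. The median log2 fold change was -0.33 over the 10 genes and 0.00112 over all tested genes. Leaving out control replicate 1 gave -0.33 again, and 10 of 10 values were negative instead of 9. Of all tested genes 49.8% were then negative, and 49.7% with all 6 libraries. Single genes moved in both directions behind this median, as Myc from -0.66 to -0.33 and Klf4 from -0.10 to -0.38.

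The tools differed on the calls. The edgeR quasi-likelihood test on whole reads called 0 of the 10 genes with all 6 libraries. DESeq2 called 2, Nr4a1 and Nr4a3, where it called lower 1.59% of the 12166 genes to which it gave an adjusted p. With control replicate 1 left out, limma, edgeR and DESeq2 each called those 2 genes and no other of the 10. Limma and edgeR then called lower 1.69% and 1.83% of the 14079 tested genes. For DESeq2 it was 3.27% of the 12714 genes with an adjusted p. The authors' deposited table likewise gives an adjusted p under 0.05 to Nr4a1 and Nr4a3 alone among the 10, and to 1.33% of all genes with an adjusted p as lower.

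**Figure D2:**
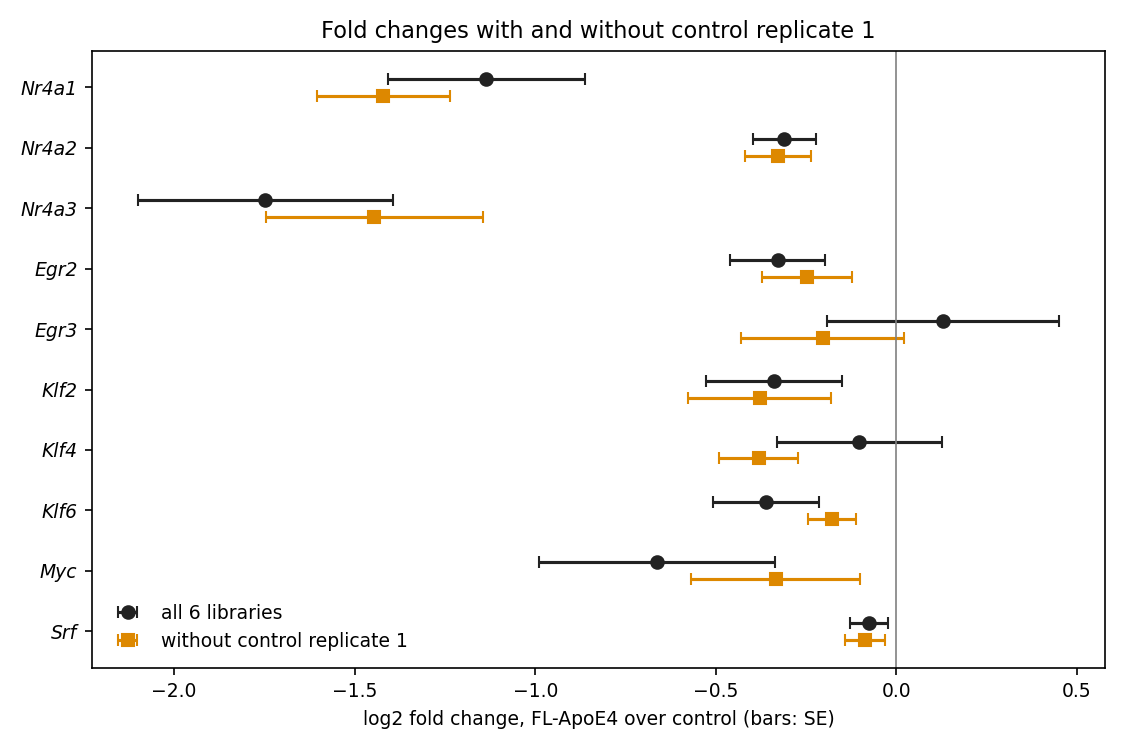
Log2 fold change of FL-ApoE4 over control (horizontal axis; bars are SE from limma) for each gene, with all 6 libraries (circles) and without control replicate 1 (squares). Nr4a1 and Nr4a3 lie below -1 in both fits, and Egr3 changes side, from 0.13 to -0.20.

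The 3 NR4A receptors were the genes with the lowest adjusted p. Their promoters are shown first, because all of them hold several copies of the core of the cAMP response element (CRE), the letters through which CREB and related factors bind early genes. Shown are the 250 bases before the annotated start of each gene, from RefSeq on build GRCm38.p6, read along the gene from 5′ to 3′, with CRE cores in capitals (TGACG, or CGTCA where the site is on the other strand).
Nr4a1, chr15:101266596-101266845, plus strand: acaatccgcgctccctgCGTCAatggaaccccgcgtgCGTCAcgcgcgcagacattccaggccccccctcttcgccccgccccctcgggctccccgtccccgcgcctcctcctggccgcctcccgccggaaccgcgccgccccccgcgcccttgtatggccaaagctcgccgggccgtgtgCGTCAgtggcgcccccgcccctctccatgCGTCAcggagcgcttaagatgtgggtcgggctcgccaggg
Nr4a2, chr2:57124004-57124253, minus strand: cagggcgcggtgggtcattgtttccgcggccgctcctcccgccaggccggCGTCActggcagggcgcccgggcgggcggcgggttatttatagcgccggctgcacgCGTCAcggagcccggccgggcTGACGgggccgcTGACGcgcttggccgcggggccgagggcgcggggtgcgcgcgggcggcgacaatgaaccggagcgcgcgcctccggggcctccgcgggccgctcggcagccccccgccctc
Nr4a3, chr4:48045055-48045304, plus strand: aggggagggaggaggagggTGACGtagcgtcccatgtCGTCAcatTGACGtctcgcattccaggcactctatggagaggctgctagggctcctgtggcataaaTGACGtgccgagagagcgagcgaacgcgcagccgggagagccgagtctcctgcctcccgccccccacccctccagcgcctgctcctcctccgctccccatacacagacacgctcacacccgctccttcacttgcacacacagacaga

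Each of these promoters held 4 CRE cores, with their first bases 40 to 233 bases before the start in Nr4a1, 111 to 200 in Nr4a2 and 147 to 231 in Nr4a3. Of the 32851 promoters in the table, searched on both strands from 250 bases before to 50 after the start, 20.8% held at least 1 core and 0.231% held at least 4. The cut of 4 is the count in these promoters themselves and was not planned, so that share is a description. The full element TGACGTCA, which contains the core on both strands and occurs in 1.79% of promoters, was not found in these windows. A match of letters is a description and shows no binding.

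Nr4a1 encodes the receptor also called NUR77. It was at 743, 1351 and 1336 normalised reads in control replicates 1 to 3 and at 407, 453 and 682 in FL-ApoE4 replicates 1 to 3. All treated libraries were below all controls, but control replicate 1 lay close to FL-ApoE4 replicate 3 and far below the other controls. The log2 fold change was -1.14 ± 0.27 (SE, limma adjusted p = 0.182 with n = 3 each). Leaving out control replicate 1 gave -1.42 ± 0.18 (limma adjusted p = 0.00456), with the treated mean at 38.3% of the remaining controls.

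Nr4a3, the receptor also called NOR1, was the scarcest of the 3. It was at 211, 117 and 107 normalised reads in controls and at 37.9, 27.8 and 62.6 with FL-ApoE4. Here control replicate 1 was the highest library of all, the opposite of its place for Nr4a1, and the groups did not overlap. Its fold change was, in log2 units, -1.75 ± 0.35 (limma adjusted p = 0.136); leaving out control replicate 1 gave -1.45 ± 0.30 (limma adjusted p = 0.0329), with the treated mean at 38.2% of the remaining controls. Between 30 and 194 reads stood behind each value, so counting error is larger than for the other NR4A genes. The authors' deposited table lists 28 lower genes over 2-fold, Nr4a3 and Nr4a1 among them, with linear ratios of 0.296 and 0.450.

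Nr4a2 encodes NURR1, the NR4A receptor best known for dopamine neurons and for damping inflammatory transcription in microglia. Its values were tight, at 528, 552 and 543 normalised reads in controls and at 436, 401 and 474 with FL-ApoE4. Every treated library was below every control, and the fold change was smaller than for its relatives. The log2 fold change was -0.31 ± 0.09 (limma adjusted p = 0.216), or -0.33 ± 0.09 when control replicate 1 was left out (limma adjusted p = 0.0877), so it missed the threshold in both fits.

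The make-up of the family therefore differed between libraries. Per kb of annotated exon, the summed NR4A level was 377, 540 and 532 normalised reads in controls and 230, 233 and 322 with FL-ApoE4. Nr4a2 made up 25.1% to 34.5% of that sum in controls and 36.3% to 46.8% with FL-ApoE4, without overlap. Nr4a1 took 56.2% to 71.5% and 50.5% to 60.5%, with overlap. Nr4a3 took 3.37% to 9.34% and 2.00% to 3.25%, like Nr4a2 without overlap. The Nr4a3 level was 39.9%, 21.1% and 19.8% of that of Nr4a2 in controls and 8.70%, 6.93% and 13.2% with FL-ApoE4, as normalised reads without regard to length. For the log2 of this ratio an exact permutation test (two-sided, 3 against 3) gave p = 0.1, the smallest that the design allows. No such ratio could therefore fall under 0.05, and the ratios were not among the planned comparisons. The same exact permutation test gave p = 0.2 for the ratio of Nr4a1 to Nr4a2 and p = 0.6 for that of Nr4a3 to Nr4a1. Adjusted over these 3 ratios (Benjamini-Hochberg), the exact permutation p-values were 0.3, 0.3 and 0.6.

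**Figure D3:**
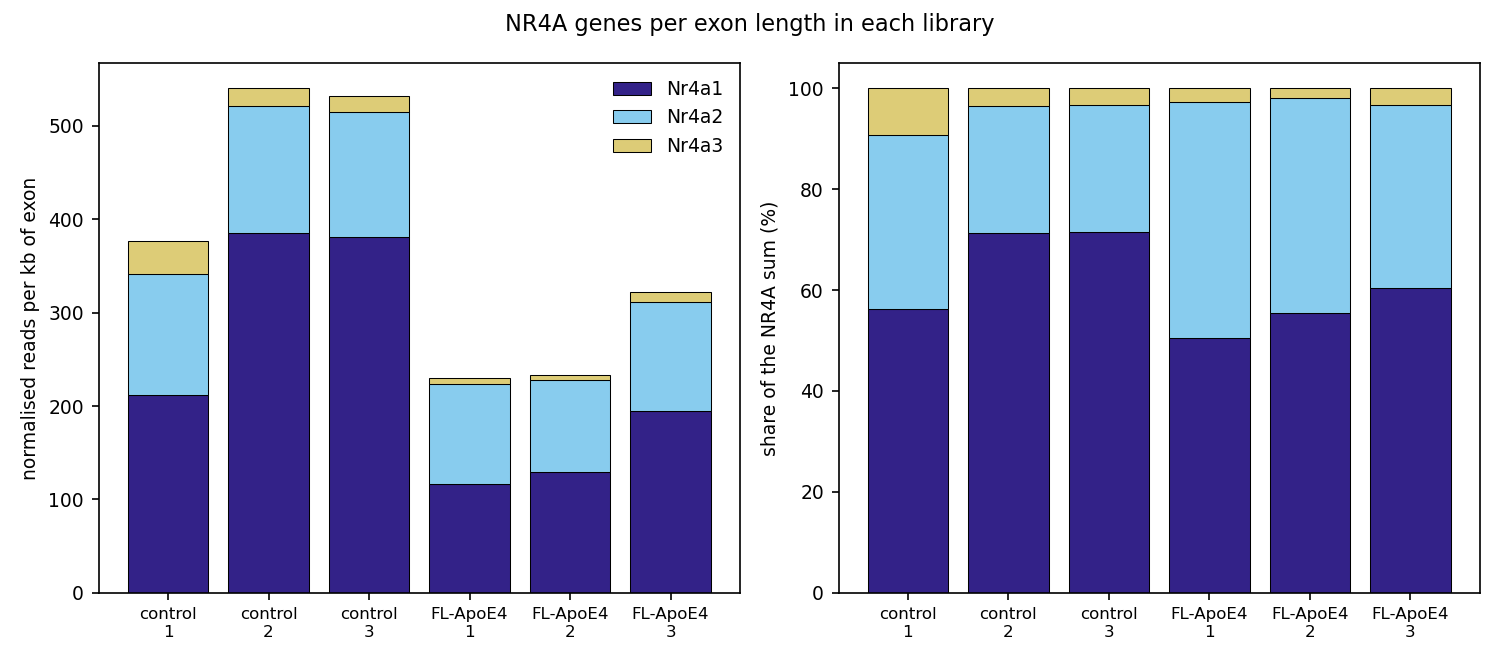
Stacked bars of Nr4a1, Nr4a2 and Nr4a3 in each library, as normalised reads per kb of exon (left) and as percent of their sum (right). The sum is 377 to 540 in controls and 230 to 322 with FL-ApoE4, and the share of Nr4a2 is larger in every FL-ApoE4 library than in any control.

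Of the 3 genes for retinoid X receptors, which pair with NR4A proteins, 2 were tested and 0 called by limma (0 at an unadjusted p under 0.05). Rxra, which encodes the alpha form, had a mean of 6369 ± 1687 normalised reads among controls and 6860 ± 453 with FL-ApoE4 (SD, n = 3). Rxrb had 4212 ± 137 and 4344 ± 8.58, with every treated library above every control by a small margin. Their log2 fold changes were 0.14 ± 0.19 and 0.05 ± 0.05 (SE; limma adjusted p = 0.817 and 0.760). Leaving out control replicate 1 turned Rxra to -0.10 and took Rxrb to 0.02, so no direction can be given. Rxrg was too low to be tested.

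Of 17 genes for regulators known to act on NR4A and Klf2 transcription (CREB and its coactivators, MEF2 factors, the ERK5 pathway and class II deacetylases) 16 were tested, 6 were positive and 10 negative, with a median of -0.03, and 0 were called by limma (3 had an unadjusted p under 0.05, and Mef2b was listed at 0). Across all tested genes 13.1% had an unadjusted limma p under 0.05. Leaving out control replicate 1 gave 3 positive and 13 negative values and a median of -0.08. Crem, a CREB relative that is itself an early target, was at 470, 511 and 471 in controls and 354, 340 and 414 with FL-ApoE4. Its log2 fold change was -0.39 ± 0.10 (limma adjusted p = 0.194, and 0.0653 without control replicate 1). Mapk7, which encodes the kinase ERK5, had -0.16 ± 0.06 and the deacetylase gene Hdac7 0.53 ± 0.19 (limma adjusted p = 0.318 and 0.306). Hdac7 was scarce, at 24.5 to 29.3 normalised reads in controls and 34.3 to 43.5 with FL-ApoE4. Creb1, which encodes CREB itself, had -0.01 ± 0.05 and is named outside the rule for this list.

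With all 6 libraries the groups did not overlap for Egr2 and overlapped for Egr3. Without control replicate 1 the log2 fold changes of these genes were close, at -0.25 and -0.20. The Egr2 promoter is shown because it holds both a CArG box, the SRF binding element, and CRE cores (all in capitals). RefSeq lists 5 starts for Egr2, of which the last 3 lie close together and share this box, and the first of these is printed.
Egr2, chr10:67537619-67537868, plus strand: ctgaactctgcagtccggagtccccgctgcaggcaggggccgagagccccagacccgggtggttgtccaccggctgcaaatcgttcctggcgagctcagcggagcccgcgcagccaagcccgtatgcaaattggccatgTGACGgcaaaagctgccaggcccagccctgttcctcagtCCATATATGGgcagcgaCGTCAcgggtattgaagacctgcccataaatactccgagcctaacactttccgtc

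A CArG box was found in 1.63% of all promoters. Among the 8 genes with a promoter in the table, Egr2 and Srf held at least 1. Egr3 and Myc had no entry. Egr2, which encodes KROX20, was at 445, 389 and 363 normalised reads in controls and at 342, 345 and 268 with FL-ApoE4. The groups just failed to touch, and FL-ApoE4 replicate 3 was lowest. As a log2 fold change this was -0.33 ± 0.13 (limma adjusted p = 0.346) and -0.25 ± 0.12 without control replicate 1 (adjusted p = 0.333).

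Egr3, a close relative induced by the same kinds of signal, was scarce. Controls were at 33.7, 53.1 and 87.6 normalised reads and FL-ApoE4 libraries at 58.0, 64.0 and 55.8. The treated values lay inside the range of the controls, which were spread more than 2-fold. The log2 fold change was 0.13 ± 0.32 (limma adjusted p = 0.918) and, without control replicate 1, -0.20 ± 0.23 (adjusted p = 0.686), so no direction can be given. The corepressor genes Nab1 and Nab2, of which Nab2 is a known EGR target, had log2 fold changes of -0.10 ± 0.07 and -0.01 ± 0.06 (limma adjusted p = 0.605 and 0.959). These were -0.03 and -0.04 with control replicate 1 left out.

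Of the KLF genes, Klf6 was by far the most abundant. It was at 7095, 5030 and 4688 normalised reads in controls and at 4238, 4041 and 4614 with FL-ApoE4. Control replicate 1 was 1.46 times the mean of the other controls, and control replicate 3 lay just above FL-ApoE4 replicate 3. In log2 units the difference was -0.36 ± 0.15 (limma adjusted p = 0.358) and shrank to -0.18 ± 0.07 without control replicate 1 (adjusted p = 0.187).

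Klf4, a factor of monocyte differentiation and of pluripotency, was at 165, 304 and 287 normalised reads in controls and at 207, 225 and 249 with FL-ApoE4. Control replicate 1 was the lowest of the 6 libraries and control replicates 2 and 3 the highest, so the treated values lay between them. The log2 fold change was -0.10 ± 0.23 (limma adjusted p = 0.907) and -0.38 ± 0.11 without control replicate 1 (adjusted p = 0.0951). It was 0.056 and 0.017 without control replicates 2 and 3, so its sign depended on which control was kept.

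Klf2 was at 149, 141 and 185 normalised reads in controls and at 155, 123.3 and 99.8 with FL-ApoE4. The groups overlapped through FL-ApoE4 replicate 1, and control replicate 1 did not stand apart for this gene. Its fold change was, in log2 units, -0.34 ± 0.19 (limma adjusted p = 0.495) and -0.38 ± 0.20 without control replicate 1 (adjusted p = 0.352).

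Among 14 other KLF genes 9 were tested, 3 were positive and 6 negative with a median of -0.14, and 0 were called by limma (2 had an unadjusted p under 0.05). That unadjusted level was reached by 13.1% of all tested genes. Klf9, a hormone- and stress-responsive repressor, was at 2526, 2699 and 2636 in controls and 2279, 2325 and 2270 with FL-ApoE4. Its log2 fold change was -0.19 ± 0.05 (limma adjusted p = 0.206, and 0.0503 without control replicate 1). Klf7 was at 1021, 686 and 677 in controls and 539, 617 and 575 with FL-ApoE4, with a log2 fold change of -0.44 ± 0.16 (adjusted p = 0.313) that was -0.24 without control replicate 1. In both genes every treated library was below every control. Klf16 had -0.14 ± 0.06 (adjusted p = 0.424), with overlap, and Klf5 was listed at 0 in all libraries.

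Myc was at 605, 307 and 302 normalised reads in controls and at 209, 189 and 357 with FL-ApoE4. The groups overlapped, because FL-ApoE4 replicate 3 was above control replicates 2 and 3, and control replicate 1 was 1.98 times the mean of the other controls. The log2 fold change was -0.66 ± 0.33 (limma adjusted p = 0.446) and -0.33 ± 0.23 without control replicate 1 (adjusted p = 0.495). Of 11 genes for MYC relatives, the partner MAX and the competing MXD proteins, 9 were tested, 6 positive and 3 negative, with 0 called by limma (0 with an unadjusted p under 0.05) and a median of 0.01; Mycn and Mycl were listed at 0. The tally turned to 3 positive and 6 negative, with a median of -0.08, when control replicate 1 was left out.

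Of 20 growth and ribosome production genes that MYC is known to drive, all tested, 4 were positive and 16 negative with a median of -0.03, and 0 were called by limma (0 at an unadjusted p under 0.05). With control replicate 1 left out, 11 were positive and 9 negative. Odc1, which encodes ornithine decarboxylase, had a mean of 19933 ± 2092 normalised reads over controls and 17673 ± 936 over treated libraries (SD, n = 3), a log2 fold change of -0.17 ± 0.08 (SE; limma adjusted p = 0.434). Gnl3, a nucleolar GTPase gene, had -0.09 ± 0.05 and Polr1b, a subunit gene of RNA polymerase I, -0.09 ± 0.05 (adjusted p = 0.513 and 0.533). Leaving out control replicate 1 moved Odc1 to -0.09 and Gnl3 to -0.05, and Polr1b stayed at -0.09.

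Srf was the steadiest of the 10 genes. Its promoter is printed because SRF is known to regulate its own gene, and it holds 2 CArG boxes and 1 CRE core (capitals).
Srf, chr17:46556163-46556412, minus strand: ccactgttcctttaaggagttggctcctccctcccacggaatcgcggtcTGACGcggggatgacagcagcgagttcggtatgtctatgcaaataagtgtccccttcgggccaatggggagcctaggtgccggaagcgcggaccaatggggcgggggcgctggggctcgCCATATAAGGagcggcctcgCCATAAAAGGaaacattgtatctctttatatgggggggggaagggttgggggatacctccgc

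Srf was at 4182, 4161 and 4407 normalised reads in controls and at 4095, 4136 and 3868 with FL-ApoE4. The groups did not overlap, but by a margin much smaller than the spread within either group. As a log2 fold change this was -0.08 ± 0.05 (limma adjusted p = 0.598) and -0.09 ± 0.06 without control replicate 1 (adjusted p = 0.445).

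Of the 6 genes for the TCF and MRTF coactivators 5 were tested, 3 positive and 2 negative, with 0 called by limma (1 at an unadjusted p under 0.05). Mrtfa, whose protein carries actin signals to SRF, was at 2333, 3106 and 2961 in controls and 3147, 3432 and 3385 with FL-ApoE4 (log2 fold change 0.26 ± 0.11, limma adjusted p = 0.370). Elk3, a TCF factor, had 0.36 ± 0.15 (adjusted p = 0.384) and Elk1 -0.04 ± 0.09 (adjusted p = 0.908). Leaving out control replicate 1 gave 0.13 for Mrtfa, 0.19 for Elk3 and -0.11 for Elk1, and 2 positive and 3 negative values. Of 17 cytoskeletal and related targets 13 were tested, 6 positive and 7 negative, with a median of -0.01 and 0 called by limma (2 at an unadjusted p under 0.05); the tally was 7 positive and 6 negative with control replicate 1 left out. For both lists, the share of all tested genes at an unadjusted limma p under 0.05 was 13.1%. Vcl, which encodes the adhesion protein vinculin, had -0.27 ± 0.09, the matrix gene Ccn1 -0.45 ± 0.18 and the actin gene Actg1 -0.10 ± 0.05 (adjusted p = 0.253, 0.358 and 0.467). Ccn1 was scarce, at 46.2 to 60.8 normalised reads in controls and 33.3 to 40.8 with FL-ApoE4. In the fit without control replicate 1 the tropomyosin gene Tpm4, at 15587 and 14349 in controls 2 and 3 and 18923 to 19775 with FL-ApoE4, rose by 0.37 ± 0.05 (log2, limma adjusted p = 0.0062). It was at 26722 in control replicate 1, above every treated library, and is named because it was the only gene of this list called there. Without control replicate 1 limma called 4.62% of all tested genes in either direction.

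Levels were compared between genes per kb of exon. In controls Srf (1469 ± 47.1 normalised reads per kb, SD, n = 3) and Klf6 (1276 ± 297) led, and did not differ beyond the spread of Klf6. Nr4a1 followed at 326 ± 98.8. Myc at 149 ± 63.8, Nr4a2 at 133 ± 3.01 and Egr2 at 117 ± 12.4 came next, then Klf2 at 85.7 ± 12.6 and Klf4 at 82.6 ± 24.8. Nr4a2, Egr2 and Klf2 were all within the spread of Myc, and Klf2 and Klf4 were within each other's spread. Nr4a3 at 24.2 ± 9.54 and Egr3 at 13.2 ± 6.20 were the lowest. With FL-ApoE4 the order was Srf (1394 ± 49.9), Klf6 (979 ± 66.3), Nr4a1 (147 ± 42.0), Nr4a2 (108 ± 8.91), Egr2 (93.7 ± 12.8), Myc (92.6 ± 33.9), Klf4 (74.5 ± 6.77), Klf2 (68.3 ± 15.0), Egr3 (13.4 ± 0.959) and Nr4a3 (7.15 ± 2.99). From Egr2 to Klf2 neighbours in this order lay within the larger of their SDs, as did Nr4a1 and Nr4a2, and the other neighbours differed by more. Nr4a3 was below Egr3 in all 3 treated libraries. In controls its level per kb was 35.2, 19.5 and 17.9, against 7.64, 12.1 and 19.9 for Egr3, so it was above Egr3 in control replicates 1 and 2 and below it in control replicate 3. Nr4a1 was within its spread of Nr4a2 in the treated group alone.

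The genes did not vary together inside the control group. In control replicate 1, relative to the mean of control replicates 2 and 3, the log2 level was higher by 0.99 for Myc, 0.91 for Nr4a3, 0.55 for Klf6 and 0.24 for Egr2. The same difference was -0.998 for Egr3, -0.85 for Nr4a1, -0.84 for Klf4, -0.12 for Klf2, -0.05 for Nr4a2 and -0.03 for Srf. The median size of this difference over all tested genes was 0.16, so 7 of the 10 genes lay beyond it. Among treated libraries FL-ApoE4 replicate 3 was above the other treated libraries by 0.93 for Nr4a3, 0.84 for Myc and 0.67 for Nr4a1, and the same difference was -0.47 for Klf2 and -0.36 for Egr2, where the median size over all tested genes was 0.08. Nr4a1 and Nr4a3 were thus on opposite sides in control replicate 1 and on the same side in FL-ApoE4 replicate 3.

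Other early genes outside AP-1 and the phosphatases gave a mixed picture. Of 16 such genes 15 were tested, 3 positive and 12 negative, with a median of -0.21 and 0 called by limma (7 at an unadjusted p under 0.05, as were 13.1% of all tested genes); Zfp36 was listed at 0 in all libraries. In the fit without control replicate 1, Ier2, Ier3, Btg2, Sik1, Maff and Rgs1 fell, Rgs2 rose, and the median was -0.30. In that fit 4.62% of all tested genes were called in either direction. For Ier3, Btg2 and Maff control replicate 1 was the highest library, and for Sik1 it was the lowest. Ier3, an early survival gene, was at 4758, 2389 and 2442 in controls and 1599, 1349 and 1404 with FL-ApoE4 (log2 fold change -1.07 ± 0.25, limma adjusted p = 0.174). Its value with control replicate 1 left out was -0.74 (limma adjusted p = 0.0021). Rgs1, a regulator of G-protein signalling, was at 6522, 6736 and 6062 and at 4695, 4356 and 5193 (-0.44 ± 0.08, limma adjusted p = 0.112). That value was -0.43 when control replicate 1 was left out (limma adjusted p = 0.020). Its relative Rgs2 was the member that rose without control replicate 1, at 3978, 7142 and 6802 in controls and 10565, 9573 and 9045 with FL-ApoE4 (0.75 ± 0.21, limma adjusted p = 0.216). The value was 0.48 without that library (limma adjusted p = 0.00666).

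**Figure D4:**
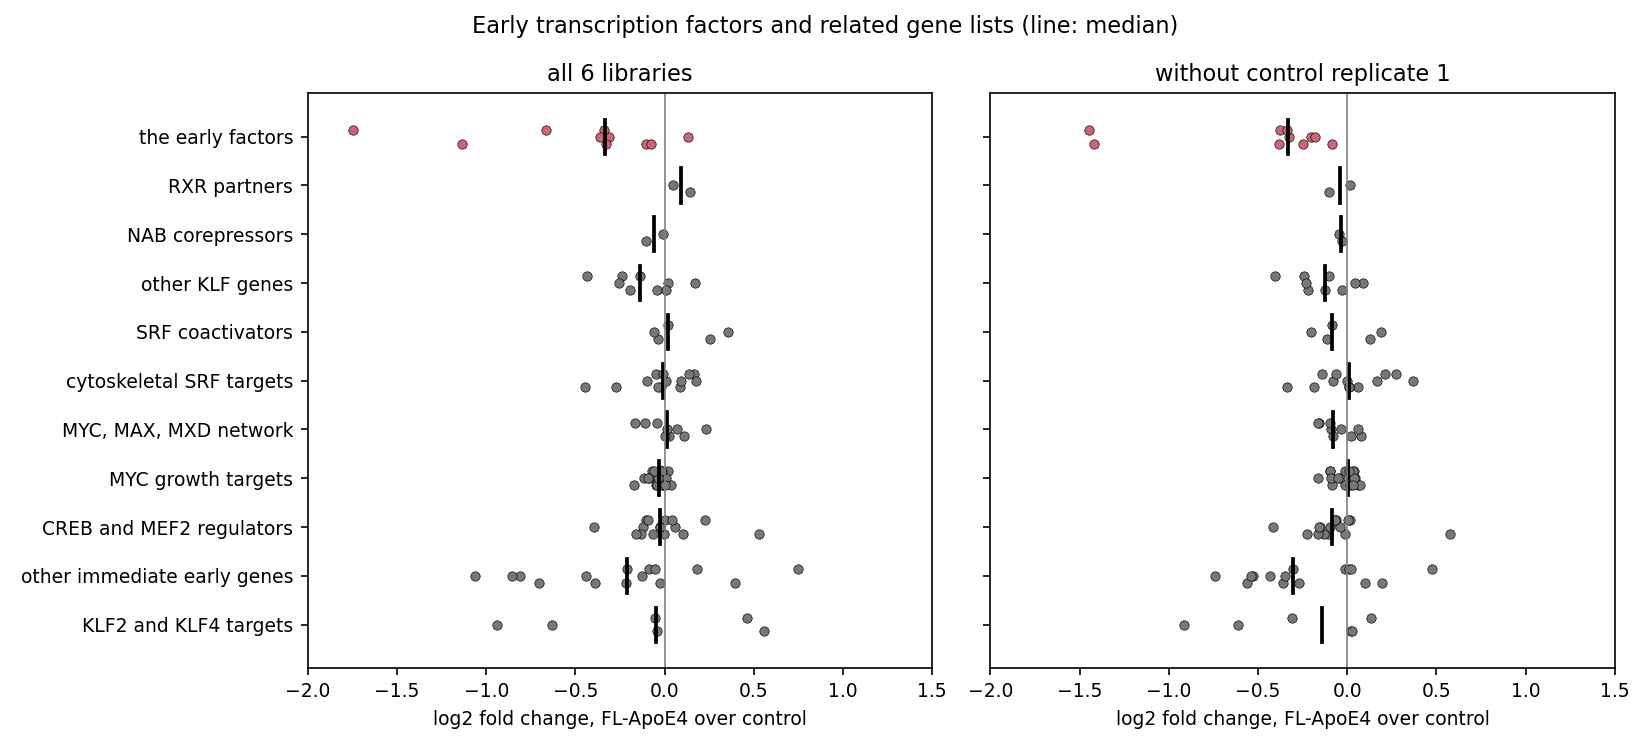
Log2 fold change of FL-ApoE4 over control (horizontal axes) for the 10 early transcription factors (top row) and the tested genes of 10 related lists, with all 6 libraries (left) and without control replicate 1 (right); points are genes and lines are medians. The median is -0.33 for the factors in both panels, -0.21 and -0.30 for other immediate early genes, and between -0.15 and 0.1 for the other lists.

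Genes whose profile over the 6 libraries was closest were sought by the root mean square difference of centred log2 values. To the mean NR4A profile, whose own root mean square size was 0.57, the closest were Slc39a12 (0.10), a zinc transporter gene, Opcml (0.12), a cell adhesion gene, and Sesn2 (0.16), a leucine sensor gene. Sesn2 was at 2428, 3313 and 3091 normalised reads in the controls and at 1361, 1353 and 1812 with FL-ApoE4, and like Nr4a1 it was lower in control replicate 1 and higher in FL-ApoE4 replicate 3 than in the other libraries of its group. Slc39a12 and Opcml were scarce, at 6.69 to 17.1 and 9.27 to 24.5. To Myc (0.55) the closest were Atp13a4 (0.08), an ATPase gene, the predicted gene Gm16976 (0.12) and Mmp12 (0.13), the macrophage elastase, which was at 501, 231 and 219 in controls and 192, 173 and 290 with FL-ApoE4. To the mean KLF profile (0.15) they were Mapkapk3, a stress kinase gene (0.03), Ier2, an early gene (0.03), and Grk6, a receptor kinase gene (0.04). These means average members that part from each other. In control replicate 1, relative to control replicates 2 and 3, Klf4 was at -0.84 and Klf6 at 0.55 in log2 units. Nr4a1 was at -0.85 and Nr4a3 at 0.91, so the closest genes need not follow any single member.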

How the data were processed

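RNA of 3 untreated and 3 FL-ApoE4 samples of BV2 cells was sequenced from libraries made with a directional kit, per the labels' protocols. The submitters' processing notes name build GRCm39 and the tools HISAT2 2.2.1, HTSeq, DESeq2 1.30.1 and FastQC 0.11.8. Their roles and the strand setting of the counting were not found in those notes, which leaves genes that overlap on either strand uncertain. The authors deposited a normalised signal per gene and library. Dividing each column by its smallest value above 0 gave whole reads (tolerance 0.01, 100% of values). The authors' deposited comparison lists each gene's log2 fold change with its p-value, raw and adjusted, and a second deposited table gives a linear ratio for genes lower by over 2-fold.

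The main test, two-sided, used limma 3.58.1 under R 4.3.3 on log2(value + 1), with the prior variance following mean expression, for the 14079 genes with a mean of at least 10. P-values were Benjamini-Hochberg adjusted over all of them, with a threshold of 0.05; fold changes on this scale understate low genes. Alternatives were the edgeR 4.0.16 quasi-likelihood test and DESeq2 1.42.0 on recovered reads, other pseudocounts, filters and scalings, limma without trend or with robust variance, a block on replicate number, and leaving out single libraries; edgeR and DESeq2 without control replicate 1 were added after seeing the data. Each test was first run on simulated reads with known fold changes, the same spread setting for every gene and no outlying library. That run therefore does not bear on the difference between the tools here. Exon lengths are merged exons of GENCODE M21 (build GRCm38, not the authors' build), and promoters are RefSeq's, matched by symbol for 8 of 10 genes. The genes and lists were chosen with earlier results of these data known. Named genes were the 10 genes, up to 3 of lowest limma p in each related list, and the 3 of most similar profile for each family; Creb1, Tpm4, and the further early genes called without control replicate 1 were named after their values were seen.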

Additional observations from a re-analysis of the deposited data

How the results depend on the processing

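Another filter, limma without trend or with robust variance, and the replicate block cannot move a gene's limma fold change, so their signs were fixed in advance. With these included, over 19 alternatives for each of the 10 genes, 185 of 190 values kept the sign of the fit on all 6 libraries. The exceptions were Egr3, at -0.20 without control replicate 1 by limma, -0.24 by edgeR and -0.25 by DESeq2 with that library left out, and Klf4, at 0.056 and 0.017 without control replicates 2 and 3. Leaving out each library in turn gave -0.20 to 0.47 for Egr3 and -0.38 to 0.056 for Klf4. Over all alternatives Nr4a1 ranged from -1.42 to -0.99 and Nr4a3 from -2.06 to -1.38, and each was called in 4 alternatives.

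Limma on 6 libraries called 0 genes of all tested and 0 of the 10. Leaving out each library in turn gave 0 to 651 genes and 0 to 2 of the 10, the highest counts without control replicate 1. DESeq2 called 390 genes and 2 of the 10; with control replicate 1 left out, edgeR called 679 and DESeq2 959, with 2 of the 10 each. Testing every gene with a mean above 0 called 1 gene. The cause of the difference between tools was not tested.

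Deviations of same-numbered libraries from their group means correlated at 0.13, 0.07 and -0.03 across genes, and control replicate 3 correlated best with FL-ApoE4 replicate 2 (0.16), so the numbers were not taken as pairs. With a replicate block 0 genes were called, and limma's adjusted p was 0.184 for Nr4a1 and 0.190 for Nr4a3. Nr4a3 and Egr3 rest on the fewest reads, 30 to 194 and 31 to 93 a library. How much of the spread is counting error was not tested.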

Other observations

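Genes that KLF2 or KLF4 are known to regulate in other cell types gave no common direction. Of 7 such genes 6 were tested, 2 positive and 4 negative, with 0 called by limma (1 at an unadjusted p under 0.05); with control replicate 1 left out 3 were positive and 3 negative. Among all tested genes 13.1% had an unadjusted limma p under 0.05 with all 6 libraries. Cdkn1a, which encodes the cell cycle inhibitor p21 and is also a p53 target, was at 11034, 6078 and 5182 normalised reads in controls and 3769, 3335 and 3917 with FL-ApoE4. Its log2 fold change was -0.94 ± 0.25 (SE, limma adjusted p = 0.205). That value was -0.61 when control replicate 1 was left out (limma adjusted p = 0.00655). Thbd, which encodes thrombomodulin and is raised by KLF2 in endothelium, was at 177 in control replicate 1 and at 505 to 574 in the other 5 libraries. The endothelial nitric oxide synthase gene Nos3 was scarce, at 6.49 to 17.0 normalised reads.

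The profiles closest to the mean of Egr2 and Egr3 (root mean square size 0.18) were those of the predicted gene Gm36457, the peroxisomal gene Pxmp2 and Cnih2, each at a difference of 0.07. That mean averages unlike genes, with Egr2 at 0.24 and Egr3 at -0.998 in control replicate 1 relative to control replicates 2 and 3 (log2). Those closest to Srf (size 0.06) were Dhrs11 (0.01), Sppl3 (0.02) and the lamin gene Lmnb2 (0.02).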
